A study of Mus musculus with 8 samples.

Results

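CpGs whose methylation differed widely between the control cultures of the *Tet3* knockdown experiment are described here, together with the level that the knockdown cultures held at the same positions. A CpG was included when it lay on an autosome, was covered by 20 or more calls in both BS libraries of the Scrambled control shRNA (shScr), and differed by at least 40 percentage points between these libraries. Of 534920 autosomal CpGs with this coverage, 9902 met the rule, out of 757812 CpGs listed in every library. They were kept as separate sets, 1194 CpGs higher in shScr BS replicate 1 and 8708 CpGs higher in shScr BS replicate 2. Because both sets were chosen by the shScr BS values, those values are given as a description only, and differences were tested in the oxBS libraries and in the knockdown libraries.

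The NPCs (neural precursor cells) were differentiated from A2lox.cre mouse ES cells, a male line in which an inducible shRNA is inserted by Cre recombination, and all cultures received doxycycline at 2 µg/ml for 5 days. Cells carried either shScr, which targets no gene, or an shRNA against *Tet3* (shTet3). Each shRNA had 2 replicates, and the DNA of each replicate was split into a BS and an oxBS library, 8 libraries in all. Whether replicates were separate clones, differentiations or cultures is not given in the sources used here, so the tests apply to these libraries only. The assay holds no expression of marker genes, and the identity of the cells was therefore not checked here. In the paper, most differentiated cells stained for PAX6. It also reports OCT4-positive cells after *Tet3* knockdown, which were not observed with shScr.

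In mammals, cytosine methylation (5mC) sits mainly at CpGs and is copied to the new DNA strand at replication by Dnmt1, so that a methylation state is carried through cell division. TET enzymes, Tet3 among them, oxidise 5mC to 5hmC, a step on the way to the unmethylated base. Bisulphite (BS) sequencing reads 5mC and 5hmC as C, whereas oxidative bisulphite (oxBS) sequencing reads 5mC alone as C. RRBS samples the CpG-rich genome by cutting at CCGG with MspI. A level of around the middle of the scale is usually a mixture of methylated and unmethylated DNA molecules, as in a population of unlike cells or at an imprinted locus.

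The sequences of the CpG stretches with the most differing CpGs are shown because neighbouring positions differed together within a short distance. Each is the plus strand of mm9, centred on the middle differing CpG of its stretch, and capitals mark the CpGs that met the rule. The first 4 were higher in replicate 1. They come from an intergenic stretch of chromosome 1 whose nearest annotated start is that of *Sulf1* (chr1:12683288-12683388), an intron of *Ror2* (chr13:53380342-53380442), the coding exon of *Fzd2* (chr11:102467407-102467507) and an intergenic stretch of chromosome 17 nearest to *1700067P10Rik* (chr17:48168536-48168636).
near Sulf1: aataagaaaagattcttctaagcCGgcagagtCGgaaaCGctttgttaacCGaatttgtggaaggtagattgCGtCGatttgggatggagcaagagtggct
Ror2: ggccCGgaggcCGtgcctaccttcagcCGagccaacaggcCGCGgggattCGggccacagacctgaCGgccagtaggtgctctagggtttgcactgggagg
Fzd2: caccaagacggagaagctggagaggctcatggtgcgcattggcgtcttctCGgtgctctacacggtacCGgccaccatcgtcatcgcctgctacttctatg
near 1700067P10Rik: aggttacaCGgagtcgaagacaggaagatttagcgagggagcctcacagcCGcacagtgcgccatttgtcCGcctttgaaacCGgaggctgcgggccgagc

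The other 4 were higher in replicate 2. They come from coding exons of *Crb2* (chr2:37649104-37649204), *Shroom3* (chr5:93371428-93371528) and *Smad6* (chr9:63801621-63801721), and from the promoter of *1190002H23Rik* (chr14:79701209-79701304).
Crb2: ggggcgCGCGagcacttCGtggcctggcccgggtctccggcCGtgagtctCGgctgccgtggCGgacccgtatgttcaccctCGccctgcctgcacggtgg
Shroom3: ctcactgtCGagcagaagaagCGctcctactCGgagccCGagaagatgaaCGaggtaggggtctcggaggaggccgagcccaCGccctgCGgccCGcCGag
Smad6: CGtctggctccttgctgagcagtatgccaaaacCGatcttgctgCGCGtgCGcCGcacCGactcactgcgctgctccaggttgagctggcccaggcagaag
1190002H23Rik: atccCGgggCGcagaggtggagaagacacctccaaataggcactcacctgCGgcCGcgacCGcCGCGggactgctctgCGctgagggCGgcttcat
In the *Sulf1* and *Ror2* windows, all 6 of 6 and 7 of 7 CpGs met the rule. In the *Fzd2* window it was 2 of 8, so that CpGs that met the rule lay among others that did not. In the *Shroom3* and *1190002H23Rik* windows it was 9 of 11 and 9 of 10 CpGs.

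The libraries held 42516767 to 61865967 calls in all, with a median coverage per CpG of 43 to 54. Mean levels over all listed CpGs were 27.5% and 27.1% in BS and oxBS of shScr replicate 1 and 32.5% and 32.2% in shScr replicate 2, whereas the 4 shTet3 libraries lay between 22.5% and 23.2%. The control replicates thus differed from each other in both kinds of library. Reads carry no molecular identifiers, so tests on calls cover counting error only.

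At the CpGs higher in replicate 1, the median level was 70.4% in shScr BS replicate 1 and 22.4% in BS replicate 2, as chosen. The oxBS libraries of the same DNA, which played no part in the choice, had medians of 58.3% and 28.2%. At the CpGs higher in replicate 2, the medians were 27.1% and 75.3% in BS and 37.5% and 66.7% in oxBS. Both sets therefore kept their order in the oxBS libraries at a smaller distance. Few positions were near the extremes in both libraries. Only 11 CpGs higher in replicate 1, and 95 higher in replicate 2, had one BS library below 20% and the other above 80%. As a reference, 38222 CpGs of intermediate level that differed little between the BS libraries (mean of 20 to 80%, difference below 10 points) were used. They are not matched in level, with BS medians of 63.2% and 65.4%, whereas the mean of the BS replicates had a median of 46.4% and 51.1% in the 2 sets. They had oxBS medians of 55.6% in replicate 1 and 68.4% in replicate 2. These comparison CpGs had been picked for agreement in BS, and still lay lower in oxBS replicate 1.

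**Figure D1:**
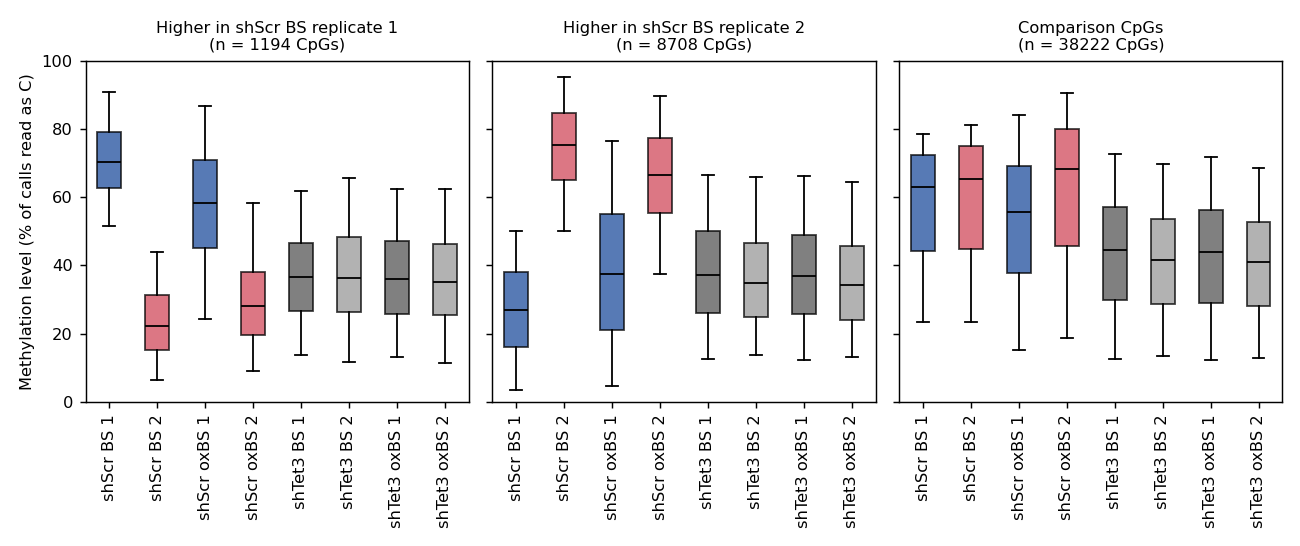
Methylation level (percent of calls read as C) in each of the 8 libraries for CpGs higher in shScr BS replicate 1, CpGs higher in shScr BS replicate 2, and comparison CpGs; boxes show the median and quartiles over CpGs and whiskers the 5th and 95th percentiles. The shScr boxes separate by replicate in BS and in oxBS in the first 2 panels, with oxBS medians of 58.3% and 28.2%, and of 37.5% and 66.7%, while the shTet3 boxes have medians between 34.1% and 37.1%.

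The oxBS libraries were then used to test the difference at each CpG. Counts of methylated and unmethylated calls were compared by Fisher's exact test (two-sided), with Benjamini-Hochberg adjustment over the 672155 CpGs covered by 10 or more calls in both shScr oxBS libraries. Calls required a *q* value below 0.01 together with a difference of more than 10 points. Such a test compares 2 libraries and not 2 conditions. The intervals given for shares treat CpGs as independent, which neighbours on the same reads are not, so they are too narrow. Of the CpGs higher in BS replicate 1, 1150 could be tested, and 459 were called with oxBS replicate 1 above replicate 2, which is 39.9% (95% Wilson interval 37.1 to 42.8). Among all CpGs tested this share was 0.600%, and among the comparison CpGs it was 1.18%. Of the CpGs higher in BS replicate 2, 8453 could be tested, and 2922 were called with oxBS replicate 2 above replicate 1, which is 34.6% (33.6 to 35.6). Over all CpGs tested it was 4.87%, and over the comparison CpGs 9.13%. All CpGs tested include CpGs close to 0%, which can hardly be called. The comparison CpGs were picked for a small BS difference, so a lower share follows in part from that choice. Among CpGs with a BS difference of 20 to 30 points in favour of replicate 1, 15.2% were called the same way. With 20 to 30 points in favour of replicate 2 it was 20.4%. No CpG of either set was called in the opposite direction, and at an unadjusted p under 0.05 the opposite direction was found at 1 and 28 CpGs, against 749 and 5295 in the direction of the BS libraries.

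The size of the oxBS difference was smaller than that in BS, which follows in part from the choice of CpGs by their BS difference. It had a median of 29.2 points in the CpGs higher in replicate 1 (middle 90%: -4.56 to 54.9), against a median of 45.8 points in BS. In the CpGs higher in replicate 2 it was -27.9 points (middle 90%: -55.5 to 2.62), against -45.5 points. The sign was that of the BS libraries at 1072 of 1150 CpGs (93.2%) and at 7859 of 8453 CpGs (93.0%). A difference of at least 40 points was present again at 280 CpGs (24.3%) and at 2046 CpGs (24.2%). At 151 and 1257 CpGs (13.1% and 14.9%) the oxBS libraries of the same DNA differed by less than 10 points. These libraries do not count 5hmC, which the BS libraries do.

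The oxBS difference followed the BS difference step by step, without a jump at the threshold of 40 points. In steps of 10 points of BS difference, the median oxBS difference was 11.8, 20.9, 27.2 and 32.1 points from the step of 20 to 30 up to that of 50 to 60 points in favour of replicate 1. In favour of replicate 2 it was -16.7, -21.7, -26.6 and -31.1 points over the same steps. Just inside the threshold (40 to 41 points), 129 CpGs higher in replicate 1 had a median oxBS difference of 24.5 points, and just outside it (39 to 40 points) 124 CpGs had 20.8 points. On the other side, 1012 CpGs inside had -25.2 points and 1000 CpGs outside had -25.7 points.

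**Figure D2:**
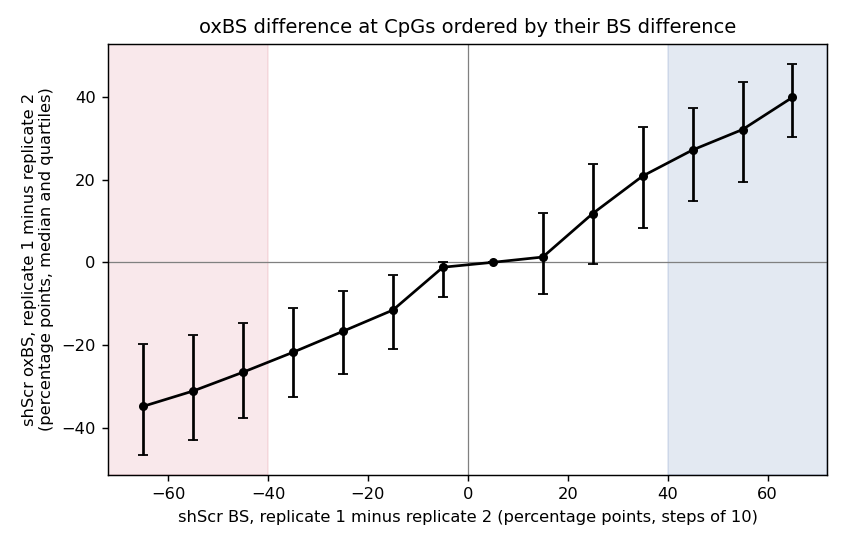
Median oxBS difference between the shScr replicates, with quartiles as bars, against their BS difference in steps of 10 percentage points; the outermost steps hold all CpGs beyond 60 points, and shading marks the steps beyond the threshold of 40 points. The medians pass from -34.8 at the left end to 39.9 points at the right end, and a BS difference of 10 to 20 points in favour of replicate 1 had a median of 1.28 points.

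The difference between the control replicates was not the same at all levels. At CpGs with a mean BS level of 50 to 60%, the median difference (replicate 1 minus replicate 2) was -19.0 points, and at 80 to 90% it was -8.87 points. The oxBS libraries had medians of -19.6 and -8.39 points at these levels. Below a level of 10% the median was 0. The CpGs higher in replicate 1 therefore lay on the other side of a general displacement, whereas those higher in replicate 2 lay on the same side. When each BS difference was taken relative to the median of CpGs at the same level, the split between the sets turned. As deposited, 12.1% of the differing CpGs were higher in replicate 1 and 87.9% in replicate 2. On the centred scale, 4770 CpGs (78.3%) were higher in replicate 1 and 1320 CpGs (21.7%) in replicate 2, and these included 1194 of 1194 and 1320 of 8708 of the CpGs described here. Relative to the oxBS median at the same level, the CpGs higher in replicate 1 lay 44.9 points higher in oxBS replicate 1 (quartiles 29.5 and 56.6). Those higher in replicate 2 had a median centred difference of -12.2 points in oxBS (quartiles -24.3 and 0.310), with the same sign at 6289 of 8453 CpGs (74.4%).

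**Figure D3:**
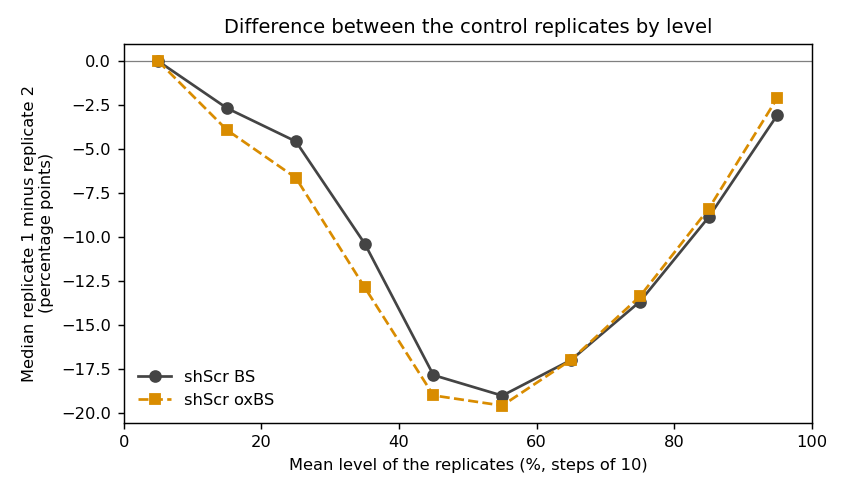
Median difference between shScr replicates 1 and 2 (percentage points) in BS and oxBS libraries against the mean level of the replicates in steps of 10%. Both curves lie at 0 below a level of 10% and are lowest at 50 to 60%, at -19.0 points in BS and -19.6 points in oxBS.

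Deeper coverage gave more calls and a closer repeat of the sign. Where the shallower BS library had 20 to 29 calls, 16.4% of the CpGs higher in replicate 1 and 14.7% of those higher in replicate 2 were called in oxBS, with the same sign at 83.3% and 88.1%. With at least 100 calls, 93 of 111 (83.8%) and 431 of 531 (81.2%) were called, with the same sign at 100% and 98.9%. The median oxBS difference was 22.4 and -23.3 points in the shallowest group and 34.6 and -34.3 points in the deepest, while the BS difference differed little between these groups (46.4 and 44.2 points, and -46.4 and -44.9 points). The oxBS coverage rose alongside. The shallower oxBS library had a median of 24 and 22 calls in the shallowest group and of 106 and 103 in the deepest. Fisher's test can detect smaller differences with more calls. The lower share called at low coverage is therefore not a measure of how many of those CpGs differed.

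Differing CpGs occurred in runs. Joined over gaps of up to 200 bp, the CpGs higher in replicate 1 formed 670 stretches and those higher in replicate 2 formed 6323. Stretches of 3 or more held 43.0% of the former (122 stretches) and 23.0% of the latter (478 stretches), and 34.8% and 57.3% stood alone. Neighbouring CpGs lie on the same reads and are not independent. The share in such stretches was not counted for all eligible CpGs. The first set also had more CpGs within 100 bp on each side, with a median of 10 against 6. In oxBS, 50.2% of the CpGs in stretches of 3 or more and 24.0% of those standing alone were called among those higher in replicate 1, and 54.1% and 26.3% among those higher in replicate 2. The CpGs within 100 bp that did not meet the rule leaned the same way. In the oxBS libraries, 3531 such neighbours of CpGs higher in replicate 1 had a median difference of 15.2 points. Of them, 684 (19.4%) were called, against 0.600% of all CpGs tested and 1.18% of the comparison CpGs. Neighbours of CpGs higher in replicate 2, 18110 in number, had a median of -18.1 points. Of them, 3952 (21.8%) were called, against 4.87% of all CpGs tested and 9.13% of the comparison CpGs. Their median shScr oxBS levels were 50% and 72.2%. All CpGs with a mean oxBS level of 50 to 60% and 60 to 70% had medians of -19.6 and -17.0 points, so these neighbours lay close to the general displacement. CpGs of opposite direction were rarely close together, with 8 in each set lying within 100 bp of one of the other set.

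The knockdown cultures differed from each other at few of the same CpGs, as they did at few of all CpGs tested. The shTet3 BS libraries had median levels of 36.5% and 36.4% in replicates 1 and 2 at the CpGs higher in shScr replicate 1, and of 37.1% and 35.0% at those higher in shScr replicate 2. By the same Fisher's exact test on 700297 CpGs, 4 of 1183 CpGs higher in shScr replicate 1 (0.338%) were called with shTet3 replicate 1 above, against 0.101% of all CpGs tested, and 2 (0.169%) with shTet3 replicate 2 above, against 0.232%. Of 8611 CpGs higher in shScr replicate 2, 22 (0.255%) were called with shTet3 replicate 1 above and 23 (0.267%) with shTet3 replicate 2 above, against the same 0.101% and 0.232%. Differences of 40 points or more were present at 10 and 104 CpGs (0.845% and 1.21% of those tested). This share was not counted over all CpGs. The background counts CpGs close to 0% as well, which can hardly be called, and 58.0% of the eligible CpGs lay below a level of 10% in shScr BS replicate 1.

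Both sets had nearly the same level in the knockdown cultures, although they had opposite orders in the controls. In oxBS, the mean of the shTet3 replicates had a median of 35.9% (quartiles 26.97 and 46.5) at the CpGs higher in shScr replicate 1 and of 35.7% (26.1 and 46.2) at those higher in shScr replicate 2, and of 43.1% at the comparison CpGs, which also had the higher level in the controls. It lay nearer to the lower control at most CpGs of each set. Of 1149 CpGs higher in shScr replicate 1, 71.5% had shTet3 nearer to replicate 2, and of 8407 CpGs higher in shScr replicate 2, 85.8% had it nearer to replicate 1. At the comparison CpGs, where shTet3 also lay below the controls, 69.1% were nearer to replicate 1. The shTet3 mean lay between the control replicates at 65.1% and 48.1% of the 2 sets, below both at 27.9% and 50.9%, and above both at 7.05% and 1.03%. Among the CpGs called in the shScr oxBS libraries, it lay between them at 86.5% and 80.1%. In the first set, the median difference of the shTet3 oxBS mean was -21.3 points from shScr replicate 1 and 6.90 points from replicate 2. In the second set it was -0.613 points from replicate 1 and -29.3 points from replicate 2.

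Since both controls enter the comparison of shTet3 with shScr, differentially methylated positions (DMPs) at these CpGs were counted with both and with each control. DMPs were called in oxBS by a logistic regression with a likelihood ratio test (*q* value below 0.01, pooled difference over 10 points, 662455 CpGs tested). With both controls, 140 of 1149 CpGs higher in shScr replicate 1 (12.2%) and 2257 of 8407 higher in replicate 2 (26.8%) were hypo-DMPs. Among all CpGs tested the share was 13.9%, but these include CpGs close to 0%, which can hardly lose methylation. The mean difference of shTet3 from the mean of the controls in oxBS was -7.18 and -15.3 points in the sets. At the comparison CpGs it was -15.7 points. Hyper-DMPs were 11 (0.957%) and 14 (0.167%) in the sets, against 0.0814% of all CpGs tested. Of the 11, 6 were neighbouring CpGs at the shared promoter of *Peg10* and *Sgce*, which are not independent. Of the hypo-DMPs, both shTet3 replicates lay below both controls at 56.4% and 78.4%, compared with 91.9% of all hypo-DMPs. Since the sets were chosen for a difference between the controls, the counts against a single control follow from that choice and are given as a description, with 1 library in the control arm. With shScr replicate 1 as the only control, 404 CpGs of the first set (34.9%) were hypo-DMPs and 0 were hyper-DMPs (5 at an unadjusted p under 0.05), and with replicate 2 as the only control 12 (1.02%) were hypo-DMPs and 144 (12.2%) hyper-DMPs. In the second set, 370 (4.37%) were hypo-DMPs and 409 (4.83%) hyper-DMPs against replicate 1, and 4769 (55.6%) and 1 against replicate 2. Over all CpGs tested, hypo-DMPs were 5.79% against replicate 1 and 16.7% against replicate 2, so the whole table moved with the control, but the hyper-DMPs (0.435% and 0.121%) did so in the reverse sense.

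**Figure D4:**
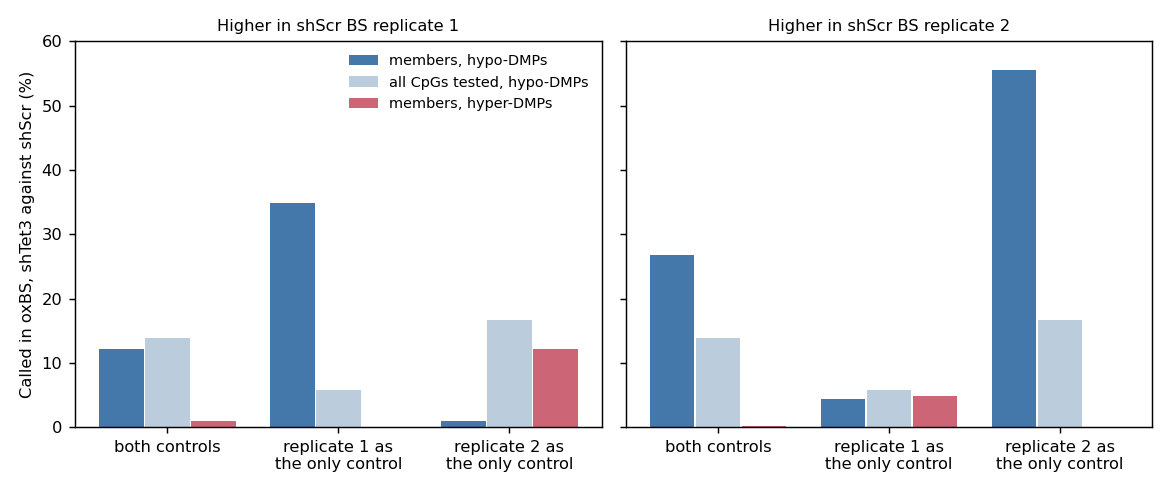
Percent of CpGs called between shTet3 and shScr in oxBS with both controls or with 1 control, for CpGs higher in shScr BS replicate 1 (left) and replicate 2 (right); bars show hypo-DMPs and hyper-DMPs among these CpGs and hypo-DMPs among all CpGs tested. Hypo-DMPs were at 34.9% of the first set against replicate 1 and at 1.02% against replicate 2, and at 4.37% and 55.6% of the second set.

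The likelihood ratio test takes no account of the spread between replicates. An F test corrected for overdispersion called 0 of all 662455 CpGs, so its count of 0 in either set says nothing about these CpGs. At an unadjusted p under 0.05 it gave 5 and 167 hypo-DMPs and 0 hyper-DMPs in the sets.

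Of the 670 stretches higher in replicate 1, the 12 with the most CpGs are described. The longest run, 12 CpGs over 454 bp of intergenic sequence on chromosome 1, had mean levels of 66.6% and 15.2% in the shScr BS libraries and of 69.7% and 17.2% in the oxBS libraries, where 11 of 12 were called. Its shTet3 levels were 20.5% and 29.4% in BS and 31.5% and 26.7% in oxBS, all nearer to shScr replicate 2. The nearest annotated start, 25307 bp away, is that of *Sulf1*, a heparan sulphate endosulphatase.

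*Ror2*, a receptor of Wnt5a, had 11 CpGs in its promoter and intron, with mean BS levels of 76.3% and 23.7% and oxBS levels of 60.035% and 19.7%. In oxBS 7 of 11 were called, and the shTet3 oxBS libraries held 32.8% in both replicates. The same locus had 1 of the 8 largest single differences of this direction, with BS levels of 92.3% and 15.7% at chr13:53380353-53380354, and that CpG was called in oxBS (58.8% and 10.7%). *Fzd2*, a Frizzled receptor for Wnt ligands, had 10 CpGs among 37 listed over 428 bp of its coding exon, with BS levels of 70.6% and 26.8% and oxBS levels of 63.3% and 32.9%, and 4 of 10 were called. Its shTet3 oxBS levels, 38.7% and 42.0%, lay between the controls.

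At the LIM homeobox gene *Lhx2*, which acts in forebrain development, 6 CpGs of the promoter (chr2:38207892-38208144) had 80.1% and 29.9% in shScr BS and 80.1% and 33.7% in shScr oxBS. All 6 were called, and the oxBS difference was as large as that in BS to within 4 points (46.4 and 50.2). The shTet3 oxBS libraries held 53.5% and 42.6%. Where *Zic1* and *Zic4* overlap in the annotation, zinc finger genes of the developing neural tube and cerebellum, 7 coding CpGs (chr9:91259203-91259366) had oxBS levels of 46.7% and 24.0%, and 5 were called. The TALE homeobox gene *Pknox2* had 7 intronic CpGs with oxBS levels of 69.8% and 26.1%, but 2 were called at a coverage of 16 and 30.

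*Bmf*, a BH3-only activator of apoptosis, had 8 intronic CpGs (chr2:118370272-118370521) with 72.1% and 18.2% in BS and 62.0% and 17.6% in oxBS, and 8 of 8 were called. The shTet3 oxBS libraries held 46.0% and 38.5%, above one control and below the other. The hyaluronan receptor gene *Layn* had 9 promoter CpGs with oxBS levels of 55.8% and 24.9%. Of these 5 were called between the controls and 4 were hypo-DMPs, with shTet3 at 24.8% and 32.7%, the level of shScr replicate 2. *Nrg2*, a ligand of ErbB receptors, had 10 intronic CpGs with oxBS levels of 59.0% and 27.3%, and here shTet3 was near the higher control, at 48.6% and 59.3%. *Dnajc22* and *Ahdc1*, a J-domain cochaperone and an AT-hook protein, had 6 intronic CpGs each, of which 3 and 4 were called. An intergenic stretch of chromosome 17 had 9 CpGs with oxBS levels of 61.9% and 34.5%, of which 0 of 7 tested were called at a median coverage of 27 and 28. Over the 12 stretches of this direction, 61 of 99 CpGs tested were called, beside 39.9% in the whole set.

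Of the 12 stretches higher in replicate 2 with the most CpGs, 10 held coding CpGs. In the whole set 21.5% of the CpGs were coding, and 21.4% of all eligible CpGs were. In *Crb2*, a Crumbs protein of the apical membrane of epithelia, 25 coding CpGs over 401 bp had mean BS levels of 13.2% and 59.8% and oxBS levels of 17.3% and 57.4%. In oxBS 22 of 25 were called, and 8 were hypo-DMPs, with shTet3 oxBS levels of 22.8% and 20.5%. *Shroom3*, an actin-binding protein of apical constriction in the neural tube, had 20 coding CpGs with oxBS levels of 32.7% and 72.5%, of which 13 were called. There shTet3 held 55.1% and 56.2% in oxBS, above the midpoint of the controls, and none was a DMP.

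The 13 CpGs at the start of *1190002H23Rik* had mean levels of 5.41% and 62.6% in BS. Their oxBS levels were 6.003% and 39.9%, with 10 called, and shTet3 oxBS levels of 16.1% and 13.5% lay nearer to shScr replicate 1. *Smad6*, an inhibitory Smad of BMP signalling, had 13 coding CpGs with oxBS levels of 19.3% and 59.7%, of which 12 were called, and shTet3 oxBS levels of 29.6% and 33.1%. The retinoic acid-degrading enzyme gene *Cyp26c1* had 13 CpGs (chr19:37767359-37767735) with oxBS levels of 7.52% and 55.0%, and 13 of 13 were called. Its oxBS difference of -47.5 points was close to the -48.7 points in BS, and shTet3 oxBS levels were 21.2% and 34.3%.

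In *Lrp8*, a reelin receptor, 10 coding CpGs over 84 bp had oxBS levels of 15.5% and 65.9%, with 9 called, and shTet3 held 27.8% and 34.1%. Within *Cdh24*, a cadherin gene, at the promoter of the overlapping *CT009512.1*, 10 of 10 coding CpGs were called, with oxBS levels of 22.0% and 71.1%. An intergenic stretch at chr3:23923117-23923597 had 9 of 10 called with oxBS levels of 24.0% and 71.4%. Fewer were called in *Zfp579* (4 of 12), in *Lims2*, a focal adhesion protein (5 of 11), and where *Cbx6*, a Polycomb chromobox protein, and *Npcd* overlap (6 of 12). In *Adat3*, a tRNA adenosine deaminase subunit inside *Scamp4*, 9 of 11 coding CpGs were called, with oxBS levels of 35.3% and 80.1%. Over the 12 stretches of this direction, 122 of 160 CpGs were called, beside 34.6% in the whole set.

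**Figure D5:**
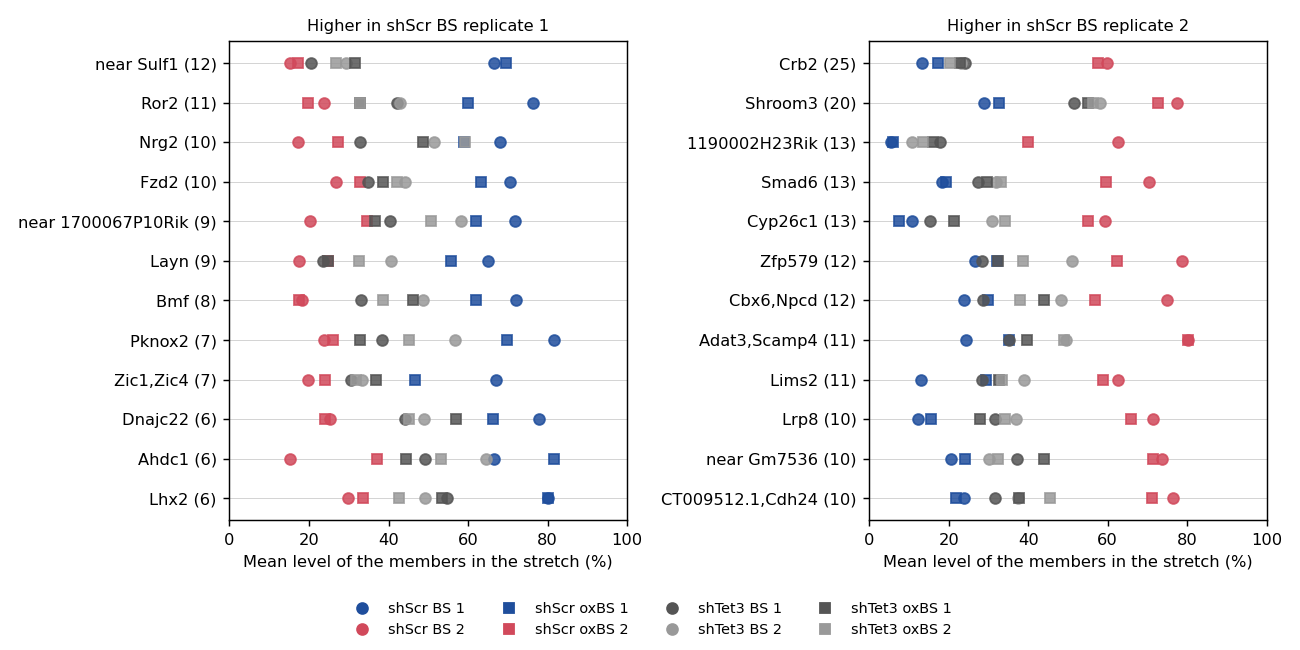
Mean level (%) of the differing CpGs in each of 8 libraries at the 12 stretches of each direction with the most CpGs (number in brackets); blue and red points are shScr replicates 1 and 2, grey points shTet3, circles BS and squares oxBS. The shScr oxBS replicates lie apart by 22.7 to 52.5 points on the left and by 26.9 to 50.4 points on the right, and the mean of the shTet3 oxBS replicates lies between them at 12 of 12 stretches on each side.

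At all 24 of these stretches the mean of the shTet3 oxBS replicates lay between the shScr oxBS replicates, and it was nearer to the lower control at 9 of 12 and 11 of 12. The exceptions in which a single shTet3 library fell outside were *Layn* and *Nrg2*.

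Among the 8 single CpGs with the largest BS difference of each direction, 5 higher in replicate 1 and 3 higher in replicate 2 were called in oxBS. A CpG in an intron of *Actn1*, an actin cross-linker, had 71.6% and 1.49% in BS at a coverage of 67 in both libraries, but 12.5% and 11.7% in oxBS. The BS difference there was not found in the oxBS libraries of the same DNA. In an exon of *Fem1a*, the oxBS levels of 11.5% and 81.1% were like the BS levels of 4.26% and 82.6%. A CpG in an exon of *Lpin1*, a phosphatidate phosphatase, had 0% in 20 calls and 82.8% in 29 calls in BS, and 57.1% and 70.0% in oxBS.

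The 2 sets lay at different places in genes. Promoters (1 kb upstream to 0.5 kb downstream of protein-coding starts) held 25.6% of the CpGs higher in replicate 1 and 8.97% of those higher in replicate 2, against 50.2% of eligible CpGs and 14.3% of the comparison CpGs. Intergenic sequence held 31.9% and 43.0%, against 40.5% of the comparison CpGs, and exons outside promoters 13.1% and 20.02%. The median distance to a protein-coding start was 2256 bp in the first set and 15342 bp in the second (comparison CpGs, 14212 bp). CpGs higher in replicate 1 also had more CpGs around them, with a median of 10 in a window of 100 bp on each side against 6 (comparison CpGs, 7). Among eligible CpGs with a mean BS level of 20 to 80%, the share higher in replicate 1 was 0.225% where the window held 1 to 4 CpGs, 0.690% at 5 to 9, 1.79% at 10 to 14, 2.04% at 15 to 19 and 1.19% at 20 to 60. The share higher in replicate 2 varied less, between 5.33% and 7.37% over all steps of density. The oxBS difference was similar in all parts of genes, with medians of 26.9 to 31.8 points in the first set and of -26.5 to -30.5 points in the second.

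Every autosome held both sets. The share of eligible CpGs higher in replicate 1 was between 0.116% (chromosome 16) and 0.430% (chromosome 14), and the share higher in replicate 2 between 1.29% (chromosome 19) and 1.84% (chromosome 10). No chromosome therefore held most of the CpGs of either set.

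At the genes of neural progenitors, 7 of 22 genes with eligible CpGs had CpGs higher in replicate 1 (19 of 1063 CpGs, 1.79%, against 0.223% of all eligible CpGs), and 4 had CpGs higher in replicate 2 (5 CpGs, 0.470%, against 1.63%). Of the 18 tested in the first set, 10 were called in oxBS, beside 39.9% in the whole set. For this and the following lists, all eligible CpGs include many close to 0%, which can hardly differ by 40 points. Among eligible CpGs of 20 to 80% in level, 0.225 to 2.04% were higher in replicate 1, depending on CpG density. The share higher in replicate 2 was 5.33 to 7.37% there. The lists were not matched in level or density. *Pax6*, a master regulator of neural and eye development, had 5 promoter CpGs with oxBS levels of 71.8% and 27.1%, of which 4 were called, and shTet3 oxBS levels of 46.3% and 37.9%. At *Nr2e1*, a nuclear receptor of neural stem cells, 3 of 3 promoter CpGs were called (71.9% and 31.7%). The 4 promoter CpGs of *Prom1*, a progenitor surface protein, had 64.2% and 42.1% in oxBS and 0 were called by Fisher's test after adjustment.

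*Hox* genes, which set position along the body axis, had CpGs higher in replicate 1 at 15 of 39 genes (29 of 1296 CpGs, 2.24%, against 0.223% of all eligible CpGs) and higher in replicate 2 at 3 genes (3 CpGs, 0.231%, against 1.63%). Among eligible CpGs of 20 to 80% in level, the share higher in replicate 1 reached 2.04%, where the window held 15 to 19 CpGs. Of 27 *Hox* CpGs tested in the first set, 8 were called in oxBS, beside 459 of 1150 (39.9%) in the whole set. At *Hoxb2*, 4 CpGs had oxBS levels of 72.1% and 27.8% and shTet3 oxBS levels of 46.6% and 51.7%, with 3 called. At *Hoxa10*, 4 CpGs had oxBS levels of 56.6% and 33.5% and 0 were called. The opposite order was found at *Hoxd4*, where 1 promoter CpG had 31.0% and 80.6% and was called. Over all CpGs of this list higher in replicate 1, median oxBS levels were 63.3% and 36.0% in the controls and 40.7% and 42.7% in shTet3.

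Germline and meiosis genes, whose promoters are methylated in most somatic cells, had no CpG higher in replicate 1 and 18 of 284 eligible CpGs (6.34%, against 1.63% of all eligible CpGs) higher in replicate 2, at 8 of 20 genes. Of these 18, 5 were called in oxBS, beside 34.6% in the whole set. The share of 6.34% lay within the 5.33 to 7.37% found over the steps of CpG density among eligible CpGs of 20 to 80% in level. The RNA helicase gene *Ddx4* had 7 promoter CpGs with 33.7% and 80.01% in BS and 51.4% and 77.7% in oxBS, with 2 called, and *Mael*, of the piRNA pathway, had 5 with oxBS levels of 48.8% and 78.5%, with 3 called. The shTet3 oxBS libraries held 53.9% and 51.5% at *Ddx4* and 40.1% and 55.6% at *Mael*, close to shScr replicate 1. The other 6 genes had 1 CpG each, and 0 of these were called.

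Imprinted genes had 12 CpGs higher in replicate 1 at 7 genes (0.923% of 1300 eligible, against 0.223% of all eligible CpGs) and 16 higher in replicate 2 at 9 genes (1.23%, against 1.63%). In oxBS 4 of 12 and 6 of 16 were called, beside 39.9% and 34.6% in the whole sets. The 6 CpGs of the first kind at the shared promoter of *Peg10* and *Sgce*, both expressed from the paternal allele (chr6:4697355-4697418), had 49.04% and 6.72% in BS but 21.6% and 7.14% in oxBS, with 2 called. They were hyper-DMPs at 6 of 6 positions, with shTet3 oxBS levels of 38.6% and 26.6%, above both controls. In BS the shTet3 levels of 35.0% and 30.5% lay between the controls. The growth factor gene *Igf2* had 1 promoter CpG called in oxBS (82.7% and 29.4%), with shTet3 at 61.8% and 68.1%, a hyper-DMP although shTet3 lay below shScr replicate 1. In *Gpr1*, 5 of 5 CpGs higher in replicate 2 were called, with oxBS levels of 30.9% and 79.8%, and shTet3 held 60.5% and 62.2%.

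Pluripotency genes had 1 of 523 eligible CpGs higher in replicate 1 (0.191%, against 0.223% of all eligible CpGs), in *Fgf4*, and 5 higher in replicate 2 (0.956%, against 1.63%), in *Zfp42*, *Esrrb* and *Sall4*, of which 2 were called in oxBS. In *Sall4* the oxBS libraries had the opposite order, 76.5% and 67.6%. Genes of mesoderm, endoderm and fibroblasts, cell types that a neural differentiation could also hold, had 3 and 6 of 660 eligible CpGs. These shares were 0.455% and 0.909%, against 0.223% and 1.63%. In oxBS, 0 of 3 and 1 of 5 tested were called, the latter in *Gata4*, beside 39.9% and 34.6% in the whole sets. Of the methylation machinery, *Tet3*, *Dnmt1* and *Zfp57* had 1 CpG each, higher in replicate 2 (3 of 471 eligible, 0.637%, against 1.63%). At *Tet3* it was not found in oxBS (78.1% and 66.7%), and only that of *Zfp57*, a protector of imprints, was called (53.8% and 84.7%). Whether the replicates held other cell types in unequal shares cannot be told apart here from a change of methylation within one cell type.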

How the data were processed

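DNA methylation was measured by oxRRBS in NPCs with shScr or shTet3. According to the methods and the submitters' processing notes, the authors trimmed reads with Trim Galore, aligned them with Bismark (mm9) and used methylKit. The deposited tables give, per library, the coverage of every CpG as a raw call count, and the percent of its calls that were C or T. All 757812 positions were the C of a forward-strand CpG in mm9, and every coverage was at least 5. Methylated counts were recovered from percent and coverage.

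Samples were grouped by their labels. Levels were taken as deposited. Fisher's exact test per CpG, the likelihood ratio test for DMPs and Benjamini-Hochberg adjustment were computed over all CpGs with a coverage of at least 10 (Python 3.11.15, numpy 2.4.6, scipy 1.17.1) and were tested on simulated data. Genes are those of GENCODE vM1. Centring subtracted the median difference of CpGs within the same step of 10% in level. Alternatives changed coverage minimums, thresholds, centring, gaps, promoter width, the kind of library, the test, the replicate block, or left out 1 library.

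The text names, for each direction, genes at the 12 stretches with the most CpGs (ties by BS difference), some of the 8 CpGs with the largest BS difference, and genes of 7 lists (imprinted, pluripotency, neural progenitor, germline and meiosis, mesoderm, endoderm and fibroblast, methylation machinery, *Hox*). The CpGs and lists were chosen with earlier results of these data known. Symbols absent from the annotation were *Zim2*, *Snurf*, *Kcnq1ot1*, *Peg13*, *Sox1* and *Tfcp2l1*.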

Additional observations from a re-analysis of the deposited data

Results flagged for a closer look

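The X chromosome was left out of the sets described above, since the rule asks for autosomes. There, 292 of 8477 CpGs with the same coverage were higher in shScr BS replicate 2 by at least 40 points, and 15 were higher in replicate 1. This signal lies in data that the comparisons above do not use. On the Y chromosome 14 of 47 CpGs were higher in replicate 2 and 0 in replicate 1. No test was made on the sex chromosomes.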

How the results depend on the processing

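Of 86 alternative values, 50 stayed close to the value reported (counts within 1.5 times, promoter shares within their 95% interval, median differences within 1 SD over CpGs, and shares nearer to a control within 1 SD between shTet3 replicates) and 36 moved further. None changed sign, but centring turned the split between the sets. The number of CpGs follows the rule. For the CpGs higher in replicate 1 it was 2150, 786 and 461 with a coverage of at least 10, 30 and 50, and 3389 and 328 with a difference of at least 30 and 50 points. For those higher in replicate 2 it was 14789 and 2999 with a coverage of at least 10 and 50, and 25255 and 2401 with 30 and 50 points. On the scale centred at the same level it was 4770 and 1320. With an oxBS difference above 40 points, 232 and 1654 CpGs were called. Between shTet3 replicates, 6 CpGs of the first set had replicate 2 above in oxBS. The share with shTet3 nearer to shScr replicate 1 was 16.6% and 90.8% in BS, and 30.6 to 32.3% and 80.3 to 84.4% without 1 shTet3 replicate. With wider promoters, 39.3% and 14.3% of the CpGs lay in them. Leaving out 1 oxBS library gave 12 to 404 hypo-DMPs and 0 to 144 hyper-DMPs in the first set, with both ends set by the shScr libraries, and 78 without shTet3 replicate 1. In the second set it gave 370 to 4769 and 1 to 409, and 1372 without shTet3 replicate 2. The F test called 0 in each. With the replicate number as a block there were 158 and 2413 hypo-DMPs and 11 and 13 hyper-DMPs, and the block changed no call count by over 1.5 times. The labels do not say what same-numbered shScr and shTet3 libraries share, and their oxBS replicate differences had a correlation of -0.0361 across 662455 CpGs, which are not independent.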
